A study of Danio rerio with 2 samples.

Results

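The genes described here are those of DNA replication and cell division: origin licensing factors, replicative polymerases, cyclins and their kinases, Cdc genes, Aurora and Polo kinases, centromere proteins and kinesins. They were chosen by symbol alone, as genes whose names begin with rrm, bub, cenp, aurk or top2, or with mcm, orc, ccna, ccnb, ccnd, ccne, cdk, cdc, plk or kif followed by a number, and *pcna* and the *pola*, *pold* and *pole* genes, without the *cdc42* genes. Inhibitors named cdkn and motors named kifc are thus outside the rule. Of 12858 zebrafish genes matched to a probe, 109 met that rule, and 108 of the 12307 genes measured on the arrays were among them. *Mcm6l*, a second gene of the Mcm6 type, was the member not measured. Its only probe read 4.04 in *miR-132* MO and 3.48 in Ctrl MO larvae, not well above background on either array. No probe was matched to *rrm2*, *bub1*, *cenpe*, *cenpf* or *top2a*, so these well-known proliferation genes are not part of the account.

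The series holds 2 Agilent arrays, each hybridised with Cy3-labelled RNA of zebrafish larvae 3 dpf. Larvae of 1 array had received 8 ng of a morpholino (MO) that targets mature *miR-132* (*miR-132* MO), and those of the other 8 ng of a control MO (Ctrl MO). Morpholinos are antisense oligonucleotides that block the RNA they pair with, and *miR-132* is a microRNA enriched in neurons. Both groups were freed of the chorion with pronase at 24 hpf and kept in 10% Hanks' solution, and the labels give the tissue as embryos. The strain of the larvae and how many were pooled for an array are not given in the sources used here. Since a single array stands for a group, there are no replicates and no test was run, and every value below compares these 2 arrays only. Both arrays lay on the same slide, and the position on it cannot be told apart from the treatment.

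Before a cell divides, the origin recognition complex (ORC) marks the places where copying will start, and Cdc6 and the ring of Mcm2 to Mcm7 proteins are loaded there. Cdc7 and the cyclin-dependent kinases then start the helicase, and the polymerases copy the DNA behind it on a clamp of PCNA. Cyclins A and B with Cdk1 carry the cell into mitosis, where Aurora and Polo kinases and mitotic kinesins build the spindle and Cdc20 directs the anaphase-promoting complex (APC) to destroy the cyclins. Many of these genes are transcribed mainly in dividing cells, which in larvae of this age include those of the brain and eye margin, the gut and the blood. The roles given here are those of the conserved genes in yeast and mammalian cells and were not measured in the larvae.

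Levels are the log2 processed intensity of a probe minus the 75th percentile of its array, averaged over the probes of a gene, and a ratio is the level in *miR-132* MO minus that in Ctrl MO larvae. A ratio of 0 therefore means the same place relative to the array, and 0.58 is about 1.5-fold. The 75th percentile of intensity was 866 on the *miR-132* MO array and 731 on the Ctrl MO array. Of the transcript spots, 80.3% were well above background in *miR-132* MO and 88.0% in Ctrl MO. Spots of the member genes passed more often, with 93.2% well above background in *miR-132* MO and 95.7% in Ctrl MO, and 102 of the 108 genes had every probe well above background on both arrays. The 153 negative control spots had an SD of intensity of 17.21 in *miR-132* MO and 2.975 in Ctrl MO, so background was more uneven in *miR-132* MO. As a measure of spot noise alone, 26 probes printed on 5 spots each had a median SD of the log2 ratio of 0.10. These probes were well above background on both arrays, so the value does not cover dim probes. Different probes of 1 gene disagreed more than replicate spots, with a median SD of 0.16 over the 71 members that had 2 or more probes. It was 0.15 over all 7188 such genes, and 37 members rested on 1 probe. Errors given below as ± are the SD between probes of a gene, not between animals.

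Taken as a whole, the 108 genes sat where the other genes sat. Their median ratio was -0.01, the same as the median of all genes (-0.01), with 52 above 0, where 47.9% of all genes were, and 56 below, where 52.1% were. Their quartiles ran from -0.18 to 0.18, against -0.24 to 0.18 for all genes. Only 1 member was higher by 1.5-fold or more in *miR-132* MO larvae, where 3.94% of all genes were, and 4 members were lower by 1.5-fold or more, where 9.95% were. A gene could pass the filter through 1 array alone, and with both arrays required to be well above background 3 members and 849 of all genes were lower by that much, against 1224 of all genes otherwise. At a lower threshold, a log2 ratio of 0.32 in either direction, the counts were 12 members higher against a background of 12.8%, and 11 lower against 19.0%. The genes thus kept close to the centre, with 103 within 1.5-fold. The scaling bears on where 0 lies: spike-in scaling moved the median of all genes to 0.06.

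Behind that median the role groups lay on different sides of 0. The genes that act in mitosis lay mostly above 0. Above it were 4 of 6 S and M phase cyclins, 4 of 4 mitotic kinases and 5 of 8 mitotic kinesins. So were 7 of 10 genes of mitotic entry and exit and 4 of 8 checkpoint and centromere genes, against 47.9% of all genes. Among those above 0 were cyclins A2 and B1 to B3, *cdk1*, *cdc20*, *cdc25b*, the mitotic Aurora and Polo kinases and *kif11*, *kif14* and *kif23*. Among those below were *ccnb1l* (-1.06), *kif18a* (-0.30) and *cdc14aa* (-0.25). Of the genes that act at the origin, 11 of 17 lay below 0, while the 11 genes of DNA synthesis at the fork, with 6 below 0, were near the 52.1% of all genes. In RNA of whole larvae, fewer cells of a type and less RNA per cell cannot be told apart.

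**Figure D1:**
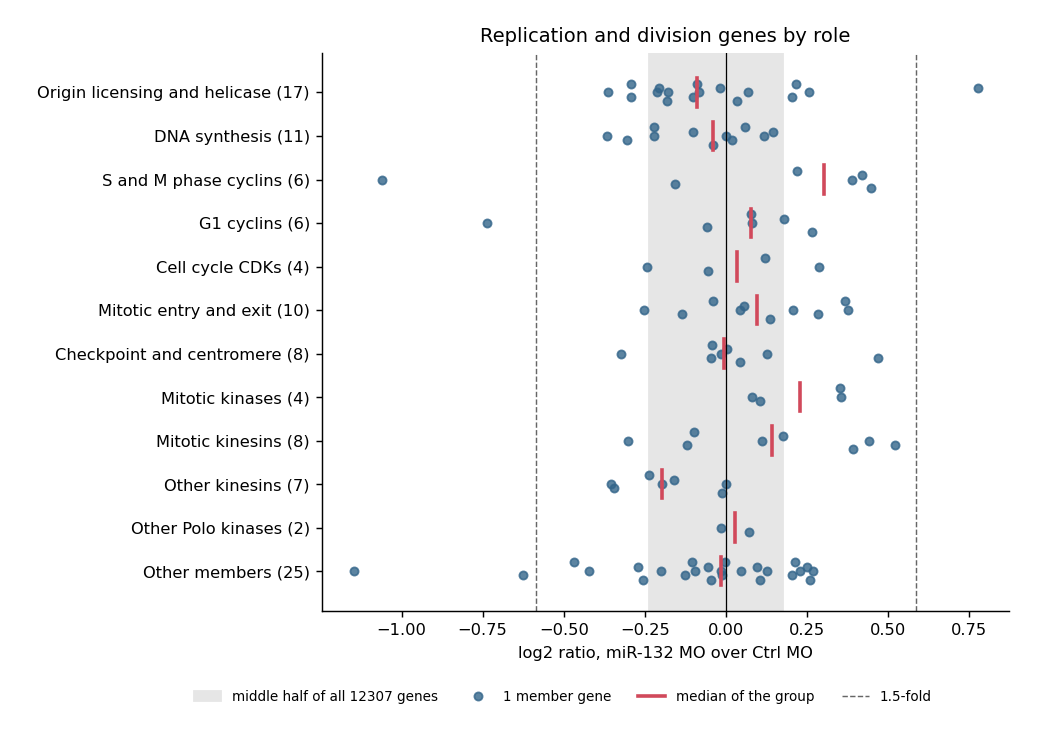
Log2 ratio, *miR-132* MO against Ctrl MO (x axis), for each of the 108 measured genes, 1 point per gene, in rows by role with the number of genes in brackets; red bars are group medians, the grey band spans the quartiles of all 12307 genes and dashed lines mark 1.5-fold. The 4 mitotic kinases lie right of 0, all 7 of the other kinesins lie left of it (2 of them right of it with other scalings), and the origin licensing row is centred at -0.09 with 1 gene, *cdc45*, far to the right.

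Origin licensing and helicase genes numbered 17, of which 6 were above 0 and 11 below, with a median of -0.09. All 6 subunits of ORC, the complex that binds origins, were below 0, with a median of -0.19, except that quantile normalization put *orc5* (0.02) and *orc6* (0.04) just above it. Each of the 6 stayed below 0 in the other 7 alternatives that held them all. Averaged over probes, *orc4* (gene 406462) was lowest, at a level of -0.07 in *miR-132* MO and 0.30 in Ctrl MO larvae. Its ratio was -0.36 ± 0.14 over 2 probes. *Orc1*, the subunit whose amount follows the cell cycle in mammalian cells, was at -0.74 in *miR-132* MO and -0.45 in Ctrl MO larvae, a ratio of -0.29 from 1 probe. Before scaling that probe read 519 in *miR-132* MO and 536 in Ctrl MO larvae, so most of its ratio is the scaling between the arrays, and normexp background correction left it at -0.06.

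The other 4 ORC genes lay closer to 0 when averaged over probes. *Orc3* had a ratio of -0.20, *orc6* of -0.18 ± 0.51 over 2 probes that pointed in opposite directions, *orc5* of -0.10 and *orc2* of -0.09 ± 0.20 over 4 probes. Of the 11 ORC probes, 3 were above 0.

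The Mcm2 to Mcm7 genes encode the ring that becomes the replicative helicase. They lay on both sides of 0. *Mcm6* was at 1.86 in *miR-132* MO and 2.15 in Ctrl MO larvae, a ratio of -0.29 ± 0.04, and *mcm3* had a ratio of -0.18 ± 0.13. *Mcm5* (-0.08 ± 0.27), *mcm2* (-0.02 ± 0.25) and *mcm7* (0.03 ± 0.15) lay within the spread of their own probes, and spike-in scaling put *mcm2* above 0 while normexp background correction put *mcm7* at -0.00. *Mcm4* had a ratio of 0.20 ± 0.44, but its 4 probes ran from -0.22 at its brightest, where intensity was 4955 in *miR-132* MO and 4866 in Ctrl MO, to 0.83 at its dimmest, with 66.2 in *miR-132* MO and 31.5 in Ctrl MO. The 6 genes together had a median of -0.05, and 8 of their 18 probes were above 0. *Mcm3l*, a second gene of the Mcm3 type, had a ratio of 0.22 ± 0.04, and *mcm10*, which helps to start the helicase, of -0.21 ± 0.17.

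*Cdc45* (gene 406695), the partner that turns the Mcm ring into a working helicase, was the member with the highest ratio, 0.78, and the only one past 1.5-fold on the higher side. Its 2 probes disagreed. One read 146 in *miR-132* MO and 32.2 in Ctrl MO larvae, a log2 ratio of 1.93. The other, brighter on both arrays, read 644 in *miR-132* MO and 707 in Ctrl MO larvae, a log2 ratio of -0.38. The SD of the pair was 1.64, among the largest of all members, and the direction of *cdc45* turns with the probe that is read. *Cdc6*, the loader of the Mcm ring, showed the same kind of split, with 0.60 from a dim probe (28.8 in *miR-132* MO, 15.97 in Ctrl MO) and -0.09 from a bright one (978 in *miR-132* MO, 880 in Ctrl MO). *Cdc7*, the kinase that fires origins, was at 0.07 ± 0.18.

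The DNA synthesis group held 11 genes, 5 above 0 and 6 below, with a median of -0.04 that spike-in scaling turned to 0.03, and no member past 1.5-fold. The lower values came from the catalytic and regulatory subunits of the polymerases. *Pola2*, the regulatory subunit of the primase polymerase, was at 0.35 in *miR-132* MO and 0.71 in Ctrl MO larvae, a ratio of -0.37 from 1 probe. *Pole* and *pold1*, the catalytic subunits of the leading and lagging strand polymerases, had ratios of -0.30 ± 0.09 and -0.22 ± 0.17, and *pold2* of -0.22 ± 0.04. These 4 genes had no probe above 0.

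Among the other subunits, *pole3*, a histone-fold subunit, had a ratio of 0.12 ± 0.04, *pold3* of 0.02 ± 0.24 and *pole2* of 0.00 ± 0.24. Read from the brightest probe alone, *pold3* was at -0.15 and *pole2* at -0.20, so the direction of this pair turns with the probe. *Pcna*, the sliding clamp and a usual marker of cycling cells, was at 0.65 in *miR-132* MO and 0.76 in Ctrl MO larvae, a ratio of -0.10 ± 0.04, about the size of the spot noise. Its unscaled intensities, 709 and 2622 in *miR-132* MO and 655 and 2324 in Ctrl MO larvae, were the higher ones in *miR-132* MO. The ribonucleotide reductase genes, which make the building blocks of DNA, lay on either side of 0, with *rrm1* at 0.15 ± 0.27 and *rrm2l* at -0.04 ± 0.21 over 6 probes. *Top2b*, a topoisomerase that postmitotic cells also use, was at 0.06 ± 0.33. These directions turn with the probe too: read from the brightest probe alone, *rrm1* was at -0.17 and *top2b* at -0.43. Averaged over probes, the group as a whole covered a range of only -0.37 to 0.15.

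The 6 cyclins of S and M phase had 4 genes above 0 and 2 below, with a median of 0.30. *Ccnb1* (gene 58025), cyclin B1, was measured by 6 probes, and each was higher in *miR-132* MO larvae, with ratios of 0.18, 0.23, 0.35, 0.46, 0.50 and 0.61. Its level was -0.54 in *miR-132* MO and -0.92 in Ctrl MO larvae, a ratio of 0.39 ± 0.17. *Ccna2* (gene 192295), cyclin A2, was at -1.09 in *miR-132* MO and -1.51 in Ctrl MO larvae, a ratio of 0.42 ± 0.18 over 3 probes. *Ccnb3* read 1170 in *miR-132* MO and 724 in Ctrl MO larvae on its 1 probe, a ratio of 0.45. *Ccnb2* had a ratio of 0.22 ± 0.26 over 2 probes. All 12 probes of these 4 genes were above 0, where 50.03% of all matched probes were, and the 4 genes stayed above 0 under each alternative in which they were measured.

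The remaining 2 cyclins of the group were dim. *Ccna1*, the cyclin A of the germ line in mice, had a ratio of -0.16 from 1 dim probe. *Ccnb1l* read 12.1 in *miR-132* MO larvae, not well above background there, and 21.3 in Ctrl MO larvae. With the *miR-132* MO side set to the lowest level well above background on that array its ratio was -0.68, against -1.06 as measured. It counts among the 4 genes past 1.5-fold on the lower side and rests on that dim reading.

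**Figure D2:**
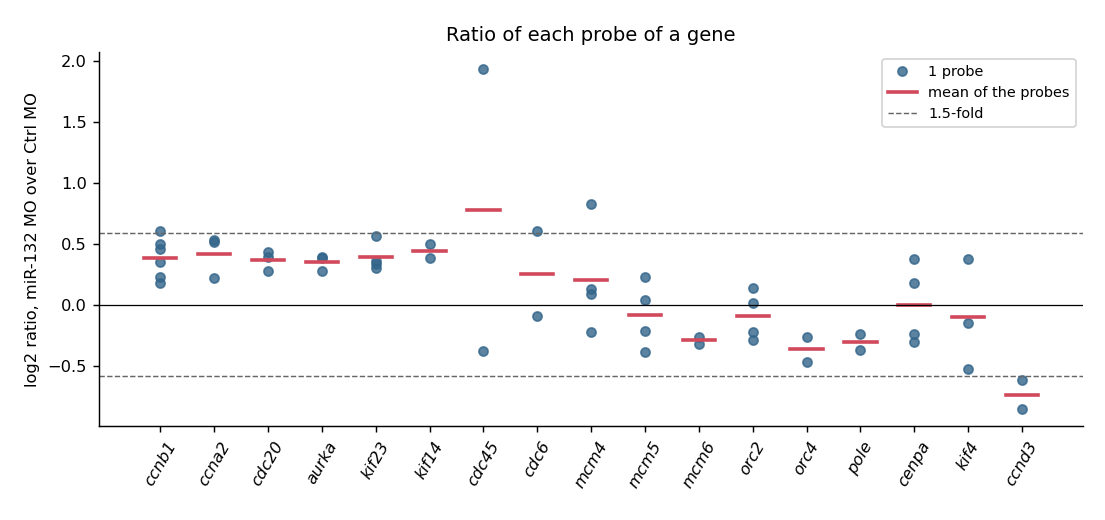
Log2 ratio, *miR-132* MO against Ctrl MO (y axis), for each probe of 17 genes with 2 or more probes, picked after their values were seen to show probes that agree and probes that do not, 1 point per probe, with the mean of the probes as a red bar and 1.5-fold as dashed lines. All 6 *ccnb1* probes lie between 0.18 and 0.61, while the 2 *cdc45* probes lie at 1.93 and -0.38.

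The G1 cyclins drive the decision to divide. *Ccne2* had a ratio of 0.27 ± 0.18, *ccnd1* of 0.08 ± 0.11 over 4 probes and *ccne1* of 0.08 ± 0.07 over 3, so cyclins D1 and E1 differed by no more than the spot noise. The cyclin D2 genes were at 0.18 (*ccnd2b*) and -0.06 (*ccnd2a*). *Ccnd3* (gene 449996), cyclin D3, went the other way. Its 2 probes read 81.0 and 33.6 in *miR-132* MO larvae, against 124 and 43.4 in Ctrl MO larvae, and its ratio was -0.74 ± 0.17, the second of the 4 genes past 1.5-fold on the lower side. It was the only one of these 4 measured by more than 1 probe. With no filter on dim probes, or with normexp background correction, it was no longer past 1.5-fold.

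Of the kinases that pair with these cyclins, *cdk1*, the kinase of mitotic entry, read 2741 in *miR-132* MO and 1896 in Ctrl MO larvae, a ratio of 0.29 from 1 probe. *Cdk6* had a ratio of 0.12, *cdk2* of -0.05 ± 0.09 and *cdk4* of -0.24. *Cdk2*, *cdk4* and *cdk6* act with the cyclins of G1 and S phase, and they lay on both sides of 0.

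The genes of mitotic entry and exit numbered 10, 7 above 0 and 3 below, with a median of 0.10. *Cdc20*, the activator of the APC, was at -0.44 in *miR-132* MO and -0.81 in Ctrl MO larvae, a ratio of 0.37 ± 0.08 in which all 3 probes took part. *Cdc25b*, a phosphatase that switches on Cdk1, had a ratio of 0.38 ± 0.20 with its 3 probes above 0, and *cdc25d* of 0.28 from 1 dim probe. The APC subunits were nearer to 0, with *cdc27* at 0.21, *cdc16* at 0.14 ± 0.14, *cdc23* at 0.06 and *cdc26* at -0.13. The Cdc14 phosphatases reached from 0.04 ± 0.05 (*cdc14b*) to -0.25 ± 0.10 (*cdc14aa*).

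All 4 mitotic kinases were above 0, with a median of 0.23 and all 7 of their probes above 0. *Plk1*, the Polo kinase of mitosis, read 2959 and 68.2 on its 2 probes in *miR-132* MO larvae, against 2153 and 40.7 in Ctrl MO larvae, a ratio of 0.36 ± 0.20. *Aurka*, the Aurora kinase of the spindle poles, was at -1.73 in *miR-132* MO and -2.08 in Ctrl MO larvae, a ratio of 0.35 ± 0.06 over 3 probes. *Aurkb*, which corrects the attachment of chromosomes, had a ratio of 0.10, and *plk4*, which sets the number of centrioles, of 0.08, each from 1 bright probe and each close to or below the spot noise. Normexp background correction moved *plk1* to -0.01, *aurka* to 0.15, *aurkb* to 0.32 and the median of the 4 genes to 0.10.

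The 8 mitotic kinesins divided 5 above 0 and 3 below, with a median of 0.14. *Kif11* (gene 195818), the motor that pushes the spindle poles apart, read 5021 in *miR-132* MO and 2953 in Ctrl MO larvae, a ratio of 0.52 from 1 bright probe. *Kif14*, which acts in cytokinesis, had a ratio of 0.44 ± 0.08 over 2 probes. *Kif23*, the motor of the central spindle, had a ratio of 0.39 ± 0.12 over 4 probes, each above 0, although 1 of them was too dim to stand well above background on the *miR-132* MO array. These were the highest ratios of the group.

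*Kif20a* (0.18 ± 0.05) and *kif2c* (0.11 ± 0.04) were closer to 0. The other 3 were below it, with *kif4* at -0.10 ± 0.45, *kif22* at -0.12 ± 0.12 and *kif18a* at -0.30 ± 0.53. The probes of *kif4* and of *kif18a* pointed in both directions, so only *kif22* had all of its probes below 0. The low *kif18a* probe read 6.24 in *miR-132* MO larvae, not well above background there, and 8.41 in Ctrl MO larvae. Its other probe had a ratio of 0.07, and *kif18a* was above 0 with both arrays required to be well above background.

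At the centromere and in the spindle checkpoint, 4 genes lay above 0 and 4 below, with a median of -0.01. *Cenph*, a subunit of the inner kinetochore, read 142 in *miR-132* MO and 86.4 in Ctrl MO larvae, a ratio of 0.47 from 1 probe. *Cenps*, which also acts in DNA repair, read 509 and 369 on its 2 probes in *miR-132* MO larvae, against 559 and 375 in Ctrl MO larvae, a ratio of -0.32 ± 0.08. *Cenpa*, the histone that marks the centromere, had a ratio of 0.00 ± 0.33 over 4 probes that ran from -0.31 to 0.37. The other 4 CENP genes, *cenpp*, *cenpo*, *cenpl* and *cenpn*, lay between -0.04 and 0.13, and *bub3*, of the checkpoint, was at -0.04 ± 0.19. This group thus followed neither the cyclins nor the ORC genes.

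**Figure D3:**
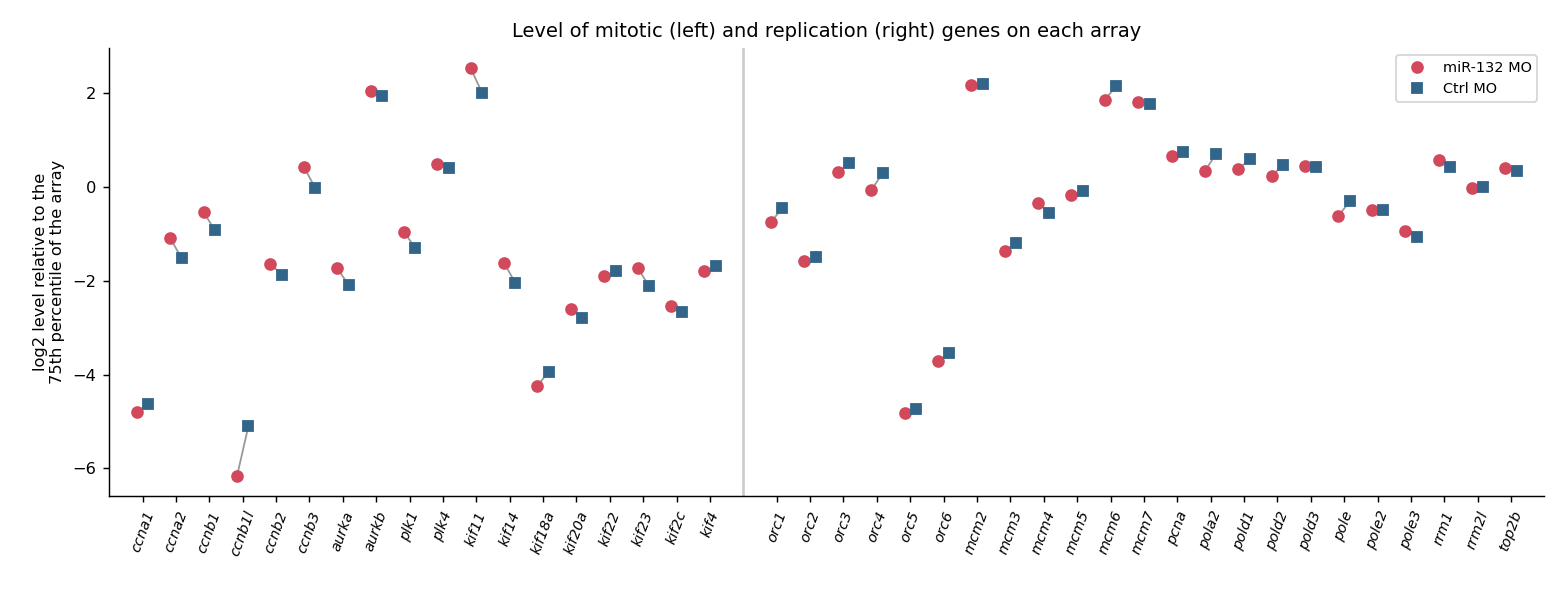
Log2 level relative to the 75th percentile of the array (y axis) of all 18 S and M phase cyclins, mitotic kinases and mitotic kinesins (left) and all 23 ORC, Mcm2 to Mcm7 and DNA synthesis genes (right), with the *miR-132* MO array as a red circle and the Ctrl MO array as a blue square joined by a line. Only the slope within a gene can be read, since levels of different probes are not comparable. The red circle is the higher one in 13 of the 18 genes on the left and in 7 of the 23 on the right. Of all genes, 47.9% had a ratio above 0. Some genes close to 0, such as *mcm7* and *pole2*, turn with the processing. Of the licensing group, *cdc45* (0.78), *cdc6* (0.26), *mcm3l* (0.22), *cdc7* (0.07) and *mcm10* (-0.21) are not drawn. Nor are the genes of mitotic entry and exit (7 of 10 above 0) and of checkpoint and centromere (4 of 8).

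Genes of the same pathway that the symbol rule does not take were looked at beside these. Of 134 such genes listed, 97 were measured, 57 above 0 and 40 below, with a median of 0.08. At least 1.5-fold higher were 2, where 3.94% of all genes were, and 0 were lower by that much, where 9.95% were. They were parted by textbook role into replication and mitosis after the values of the member genes were known. The parts held 36 and 57 of the 134 listed genes. The rest were in neither part and count only in the totals above. Of the 29 measured replication and S phase genes, 6 were above 0 and 23 below, with a median of -0.13. Of the 41 measured mitosis genes, 32 were above 0 and 9 below, with a median of 0.18. Of all genes, 47.9% were above 0 and 52.1% below. The directions were those of the ORC genes and of cyclins A2 and B1 to B3, the mitotic kinases and most mitotic kinesins. The cyclins *ccna1* (-0.16) and *ccnb1l* (-1.06) were below 0, and the Mcm2 to Mcm7 genes lay on both sides of it (median -0.05). Member genes of DNA synthesis (median -0.04) and of checkpoint and centromere (median -0.01) lay near the median of all genes (-0.01). Among probes, 19 of 64 replication probes and 70 of 90 mitosis probes were above 0, against 50.03% of all matched probes.

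**Figure D4:**
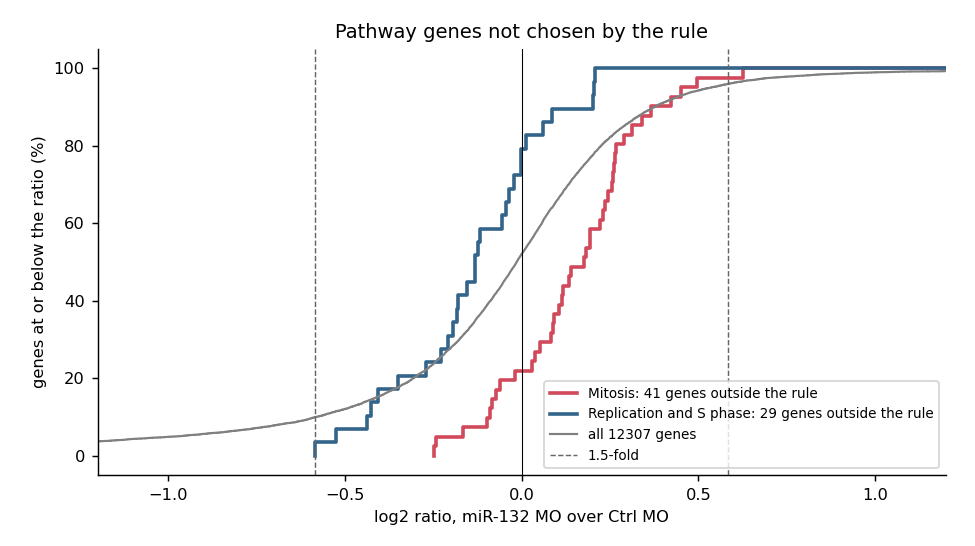
Percent of genes at or below each log2 ratio, *miR-132* MO against Ctrl MO (y axis against x axis), for the 41 mitosis genes (red) and the 29 replication and S phase genes (blue) outside the symbol rule, and for all 12307 genes (grey), with 1.5-fold dashed. The red curve lies right of the grey one through its middle (median 0.18) and the blue curve left of it (median -0.13), and both have fewer genes in the far lower tail than all genes have.

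Among the replication genes, low ratios were those of *gins4* (-0.58 ± 0.21) and *gins2* (-0.41 ± 0.10), subunits of the GINS complex that joins Cdc45 at the helicase. *Dut*, which keeps uracil out of DNA, had a ratio of -0.42 from 1 probe. *Rpa3*, a subunit of the protein that coats single-stranded DNA, had a ratio of -0.44 from 1 probe, and *gmnn*, the inhibitor of licensing, of -0.35 ± 0.11. None of these reached 1.5-fold. Of the 29, 6 (20.7%) passed the lower threshold of 0.32 on the lower side, near the 19.0% of all genes that did. On the higher side 0 passed it, where 12.8% of all genes did. The highest were *chaf1a* (0.21 ± 0.24), *tk1* (0.20 ± 0.27) and *rfc2* (0.20).

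Among the mitosis genes, *hmmr*, a spindle assembly factor, was highest at 0.63 ± 0.50 over 4 probes and was past 1.5-fold. *Ncaph*, a condensin subunit, had a ratio of 0.50 ± 0.35, *cdkn3*, a phosphatase of cyclin-dependent kinases, of 0.45 ± 0.06, and *kifc1*, a minus-end motor, of 0.42 ± 0.06 over 4 probes. *Cep55l* was at 0.36 and *nusap1*, which bundles spindle microtubules, at 0.34 ± 0.26. The lowest were *anapc11*, an APC subunit, at -0.25 and *birc5a* at -0.24 ± 0.66. In this list 6 genes (14.6%) passed the lower threshold of 0.32 on the higher side, near the 12.8% of all genes that did. On the lower side 0 passed it, where 19.0% of all genes did. The other gene past 1.5-fold in the pathway list was *cdkn1ca*, an inhibitor that takes cells out of the cycle, at 0.66 from 1 probe. *Rad21a*, a cohesin subunit, was at 0.50 ± 0.26 over 3 probes. Like *cdkn1ca*, it was in neither the replication nor the mitosis part.

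Several genes that the symbol rule takes are known for roles outside cell division, and 2 of the 4 genes past 1.5-fold on the lower side were among them. Cdk5 is a kinase of neurons that needs an activator of the p35 or p39 type. *Cdk5r2b* (gene 445114), an activator of the p39 type, read 255 in *miR-132* MO and 477 in Ctrl MO larvae, a ratio of -1.15 and 0.451 of the Ctrl MO level. *Cdk5r2a*, its paralog, read 3074 in *miR-132* MO and 4002 in Ctrl MO larvae, a ratio of -0.63. Both rest on 1 probe each and both are past 1.5-fold on the lower side. With spike-in scaling (-0.55) or normexp background correction (-0.49), *cdk5r2a* was no longer past 1.5-fold. *Cdk5* itself was at -0.00 ± 0.05, and the activators of the p35 type were at -0.09 (*cdk5r1a*) and -0.01 (*cdk5r1b*).

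The kinesins outside the mitotic group, most of which carry cargo or serve cilia, were lower by less. All 7 were below 0, with a median of -0.20. *Kif2a* and *kif3cb* moved above 0 with median, spike-in and quantile scaling and with the brightest probe, and *kif3cb* also with loess scaling. Of their 14 probes, 2 were above 0. *Kif1b*, a motor of axonal transport, had a ratio of -0.35 from 1 dim probe, *kif3a*, of the kinesin of cilia, of -0.34 ± 0.15 over 3 probes, and *kif5aa*, a motor of neurons, of -0.20 ± 0.03 over 3 probes. *Kif3b* was at -0.24, *kif5c* at -0.16, *kif2a* at -0.01 and *kif3cb* at -0.00. The other 5 genes stayed below 0 with each of those settings.

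The other members with Cdk or Cdc names spanned transcription, splicing, ubiquitin transfer and protein folding. *Cdk17*, a kinase of postmitotic cells, had a ratio of -0.47 from 1 dim probe, and *cdc37l1* of -0.42 ± 0.16. *Cdc37*, which brings kinases to Hsp90, was at 0.26 ± 0.23, *cdk9*, which frees paused RNA polymerase, at 0.23, and *cdc40* and *cdc5l*, of the spliceosome, at 0.25 and 0.20 ± 0.23. *Cdk7* (-0.04 ± 0.13) and *cdk8* (0.11) lay near 0. Of the 25 genes in this group, 10 were above 0 and 15 below, with a median of -0.01 and a range of -1.15 to 0.27. The Polo kinases not of mitosis, *plk3* (0.07) and *plk2b* (-0.02 ± 0.17), did not stand out.

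Marker genes of several cell types moved between the same arrays. Of 13 neuron markers, 9 were below 0, with a median ratio of -0.25 and a summed linear level of 78.7 in *miR-132* MO and 94.8 in Ctrl MO larvae. Of 12 neural progenitor markers, 9 were above 0, with a median of 0.34 and a sum of 99.7 in *miR-132* MO and 90.8 in Ctrl MO larvae. Most of this sum is *fabp7a*, at a level of 6.21 in *miR-132* MO and 6.08 in Ctrl MO larvae, a ratio of 0.13 ± 0.10. *Neurog1* (0.88 ± 0.14) and *dla* (0.69 ± 0.01), which mark cells about to become neurons, led that list. Against the direction of their lists were the progenitor markers *sox2* (-0.06), *her6* (-0.08 ± 0.12) and *her9* (-0.10). So were the neuron markers *elavl3* (0.10), *elavl4* (0.09 ± 0.22), *nefma* (0.14 ± 0.36) and *nefmb* (0.42 ± 0.69). The medians of the brain lists thus lay on opposite sides of 0, with markers of each list on both sides.

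The photoreceptor, pancreas and erythroid lists held larger differences. Of 11 photoreceptor markers, 10 were at least 1.5-fold lower, where 9.95% of all genes were, and *crx* was at 0.35. Their sums were 58.2 in *miR-132* MO and 144.8 in Ctrl MO larvae. Of 10 exocrine pancreas markers, 9 were at least 1.5-fold lower, and *ptf1a* was at 0.09. Their sums were 4.64 in *miR-132* MO and 42.8 in Ctrl MO larvae. Of 7 erythroid markers, with a median of 0.28, 3 were at least 1.5-fold higher, where 3.94% of all genes were. These were *hbbe3*, an embryonic globin, at 4.44 from 1 probe, *slc4a1a*, the red cell anion exchanger, at 1.43 ± 0.02, and *alas2*, of heme synthesis, at 1.04 ± 0.16. *Gata1a* was at 0.28 ± 0.08, and the globins *hbae1.1*, *hbae3* and *hbbe2* were at 0.15 ± 0.09, -0.00 and -0.20 ± 0.01. The summed erythroid level, which is mostly that of *hbae1.1* and *hbae3*, was 551.6 in *miR-132* MO and 527.8 in Ctrl MO larvae. The muscle markers had a median of -0.05 over 7 genes and the germ cell markers of -0.03 over 3, with 0 past 1.5-fold in either list. Each marker measured was well above background on both arrays with at least 1 probe. The part of these shifts in the replication, division and Cdk5 activator ratios was not tested.

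Probe brightness moved with the ratios too. Within a gene, the brightest probe gave a lower ratio than the mean of the gene's other probes in 52 of 71 members, against 60.2% of all 7188 genes with 2 or more probes. Across genes the direction was the other: the 3077 dimmest genes of all had a median ratio of -0.15, and the 3 brighter groups of about the same size lay between 0.00 and 0.02. A probe could pass the filter through 1 array alone, and more spots were well above background in Ctrl MO (88.05%) than in *miR-132* MO (80.31%). With both arrays required, the median of all genes was 0.00, against -0.01 otherwise. The part of the filter in the median of the dimmest genes was not tested. Read from the brightest probe alone, 3386 of the 7188 genes with 2 or more probes were above 0 and 3802 below. Below 0 were 12 of the 14 licensing genes with 2 or more probes and 9 of 10 DNA synthesis genes. Read in the same way, 3 of 3 cyclins, 2 of 2 mitotic kinases and 6 of 7 mitotic kinesins were above 0. So were 24 of 27 mitosis genes outside the rule, while the genes of mitotic entry and exit had 3 above and 3 below. In the brightest probes these groups thus lay on different sides of 0, over few cyclins and mitotic kinases. The groups also differed in level between genes. Among the 3077 brightest of all genes were 7 of 11 DNA synthesis and 4 of 17 licensing genes. Of the other groups, 0 of 6 cyclins, 2 of 4 mitotic kinases and 1 of 8 mitotic kinesins were among them. The cyclin group as a whole came down to a median of 0.11. The part of probe brightness in the size of the ratios was not tested.

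**Figure D5:**
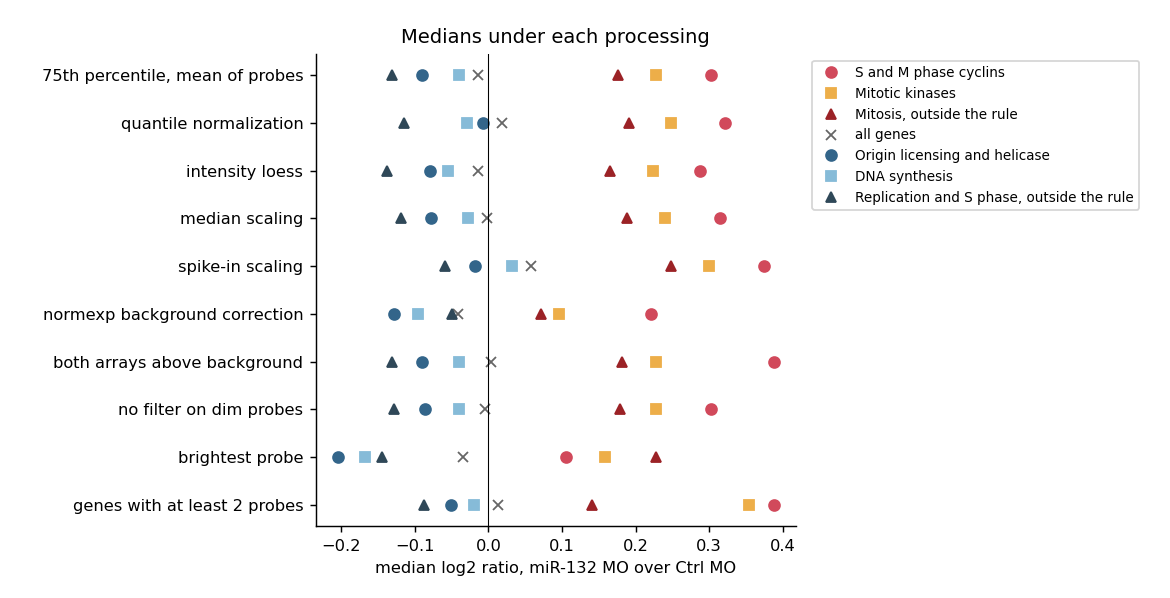
Median log2 ratio, *miR-132* MO against Ctrl MO (x axis), of 6 gene groups and of all genes under the main processing and 9 alternatives (y axis). In each row the cyclins, mitotic kinases and mitosis genes lie right of the 3 replication groups, and the cyclin median runs from 0.11 with the brightest probe to 0.39. Other groups of mitosis are not drawn. Over the alternatives their medians ran from -0.11 to 0.07 (checkpoint and centromere), 0.05 to 0.17 (mitotic entry and exit) and 0.11 to 0.22 (mitotic kinesins).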

How the data were processed

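Total RNA of both groups was labelled with Cy3 by the authors and hybridised to 1 array each. The authors deposited the spot intensity as Agilent Feature Extraction 10.7 (named in the submitters' processing notes) wrote it, background-subtracted and not normalized between arrays. A copy of these values and the authors' table of selected probes, which holds their normalized values and fold changes, were not used.

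Here the log2 processed intensity minus the 75th percentile of its array was averaged over spots, probes and genes. A probe was kept where either array had it well above background. Probes were named through their RefSeq accession and a gene table of assembly GRCz12tu. Of 43603 probes, 25069 matched 12858 genes. The array was designed on another build, so no coordinates are given.

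The genes and lists were chosen with earlier results of these data known. Named were core replication and division genes, the 10 highest and 10 lowest members with every probe above background on both arrays, and members past 1.5-fold. Others were added to describe their group after values were seen. A gene of the pathway list is not reported here by name. Listed cell type markers were of neurons, neural progenitors, photoreceptors, exocrine pancreas, muscle, erythroid cells and germ cells. The alternatives were quantile, loess (span 0.3), median and spike-in scaling (7 probes), normexp (offset 50, on the median signal, since no mean signal column was present), other filters on dim probes, the brightest probe, other thresholds and units, and, chosen after seeing the data, genes with at least 2 probes. The scalings, except normexp, and the averaging over probes were tested on an array simulated from the Ctrl MO array. It kept the background calls of that array, so unequal background, other filters and the brightest probe were not part of the test. Normexp was run in limma 3.58.1 under R 4.3.3, and all else in Python 3.11.15 with numpy 2.4.6, pandas 2.3.3 and, for loess, statsmodels 0.14.6.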

Additional observations from a re-analysis of the deposited data

How the results depend on the processing

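The median over all members lay between -0.07 and 0.07 under 9 alternatives. Of 144 medians of members, role groups and pathway lists, 7 moved by more than the spot SD of 0.10. With the brightest probe the medians were -0.20 for licensing, -0.17 for DNA synthesis, 0.11 for S and M phase cyclins and -0.11 for checkpoint and centromere genes. With normexp they were 0.10 for mitotic kinases and 0.072 for mitosis genes outside the rule. With genes of at least 2 probes, a setting chosen after seeing the data, the median of mitotic kinases was 0.35. The replication and S phase list outside the rule stayed below 0 (-0.14 to -0.05). The value nearest to 0 was that with normexp, where the median of all genes was -0.04, so the list lay close to all genes there.

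The count of members higher, 1 in the main setting, was 2 with spike-in scaling (*cdc45*, *kif11*), 2 with no filter on dim probes (*cdc25d*, *cdc45*), and 0 with normexp, the brightest probe, a 2-fold threshold or every probe past the threshold. It was 12 at a lower threshold, 0.32 on the log2 scale, and 4 when probes were counted one by one. The count of members lower, 4, was 1 with normexp (*cdk5r2b*), 1 with at least 2 probes (*ccnd3*), 2 with no filter or at 2-fold, and 11 at that lower threshold. The higher and lower split of members was 1 and 4 in the main setting and 2 and 3 with spike-in scaling. *Cdc45* reversed to -0.38 with the brightest probe. For the 51 named genes, 50 of 442 values shifted by more than the spot SD. The cause of these moves was not tested, beyond the fewer genes or probes some settings hold.

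Over all genes, 485 were higher and 1224 lower. Among the scalings, spike-in moved this split most, to 660 and 1037. Both arrays above background gave 474 and 849, normexp 235 and 578, no filter 762 and 1242, at least 2 probes 260 and 511, 2-fold 123 and 597, the lower threshold 1573 and 2341, probes one by one 1262 and 2188, and every name on the array as a unit 1145 and 3265. Naming probes by the array's own gene names was not run, since the scanner values hold no such column. No paired analysis was possible because a group has only 1 array, nor could a replicate be left out. Signal over background limits the dim genes most: *ccnb1l* ran from -1.06 to -0.18.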
